A study of Mus musculus with 32 samples.

Results

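The 36 genes described here encode glucose and lactate transporters, the enzymes and regulators of glycolysis, and genes widely used as readouts of the hypoxia response. They were listed by name, with earlier results of these data known. A gene counted as measured where at least 1 probe set of the array was annotated to it alone. Of the 36 genes, 33 were measured, among 19938 genes measured in all. A gene with several such probe sets is represented by the brightest of them, by its mean signal over the 32 arrays. Gapdh, Gpi1 and Eno1 had no probe set of their own in the annotation used and were not analysed here.

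Glycolysis splits glucose into pyruvate, which lactate dehydrogenase turns into lactate for export by monocarboxylate transporters. The hypoxia-inducible factor HIF is kept low by prolyl hydroxylases (the Egln genes) that need oxygen, and when stable it binds a short core sequence near genes of glucose uptake, glycolysis, mitochondrial turnover and collagen hydroxylation. Growth factor signalling and inflammatory activation can also raise HIF and glycolysis in macrophages, which draw heavily on glucose.

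Total RNA of mouse macrophage lines was hybridised to Affymetrix Mouse Gene 1.0 ST arrays, 2 arrays for each of 16 groups, numbered I and II and described by the submitters as biological replicates. The lines, each named by M-/- and its receptor, are called here by the receptor alone: Y721F and 3AB carry a receptor for CSF-1, the growth factor of macrophages, that lacks Tyr-721, and WT and 3ABY721 carry one that has it. In the time course, Y721F and WT cells were starved of CSF-1 overnight and then given it for 0, 20, 60 or 180 min. In the steady-state experiment, Y721F, WT, 3AB and 3ABY721 cells were either grown continuously with CSF-1 or starved of it. All 4 lines share the M-/- background, the medium was α-MEM with newborn calf serum, and CSF-1 was the human protein at 120 ng/mL. Each receptor exists in a line of its own, so receptor and line cannot be told apart. The labels name 4 different receptors, so Y721F with WT and 3AB with 3ABY721 are not repeats of the same contrast. How else these receptors differ is not described here.

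Values are log2 signals, with array medians between 5.97 and 6.22, and the 2 arrays of a group had a Pearson r across genes of 0.986 to 0.996. All 8 measured macrophage markers lay on average above the 20th percentile of signal. Csf1r lay between 12.72 and 13.41 over the 32 arrays, but it is the gene of the receptor that the lines carry. Its signal is thus no independent check of cell type. Of the others, Cd68 lay between 12.58 and 13.27, while Fcgr1 ranged from 5.99 to 11.92 and Mertk from 5.43 to 10.26. Of the lymphocyte markers 2 of 5 lay above that percentile, of the granulocyte and mast cell markers 4 of 7, of the fibroblast markers 4 of 6, and of the dendritic cell and osteoclast markers 5 of 5 each, and the osteoclast list holds genes that macrophages also express, such as Ctsk. In bulk RNA, fewer cells of a type and less RNA per cell cannot be told apart. The signal of a probe set also depends on its own sequence, so levels are compared between samples and not between genes or marker lists.

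The 2 arrays of some grown groups stood apart for these genes, which touches every comparison of grown cells. In grown Y721F cells, array II lay above array I in 30 of the 33 genes, by a median of 0.66 and by more than 1 in 11 genes, while all genes had a median gap of 0.03. In grown WT cells, array II lay above array I in 27 genes, by a median of 0.38. In grown 3AB cells the order was turned, with array II below array I in 26 genes and a median gap of -0.18. Among the widest gaps in grown Y721F cells were those of Vegfa, a growth factor for blood vessels, at 9.01 and 11.66, of the ankyrin repeat gene Ankrd37 at 6.44 and 8.87, and of Ndrg1 at 10.22 and 12.51. In grown WT cells Ndrg1 read 8.28 and 10.15, and Bnip3, whose product marks mitochondria for removal, 8.36 and 10.16. The starved groups had median gaps between -0.07 and 0.07. Where a call was lost without 1 array or under another setting, the value concerned is given beside it.

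**Figure D1:**
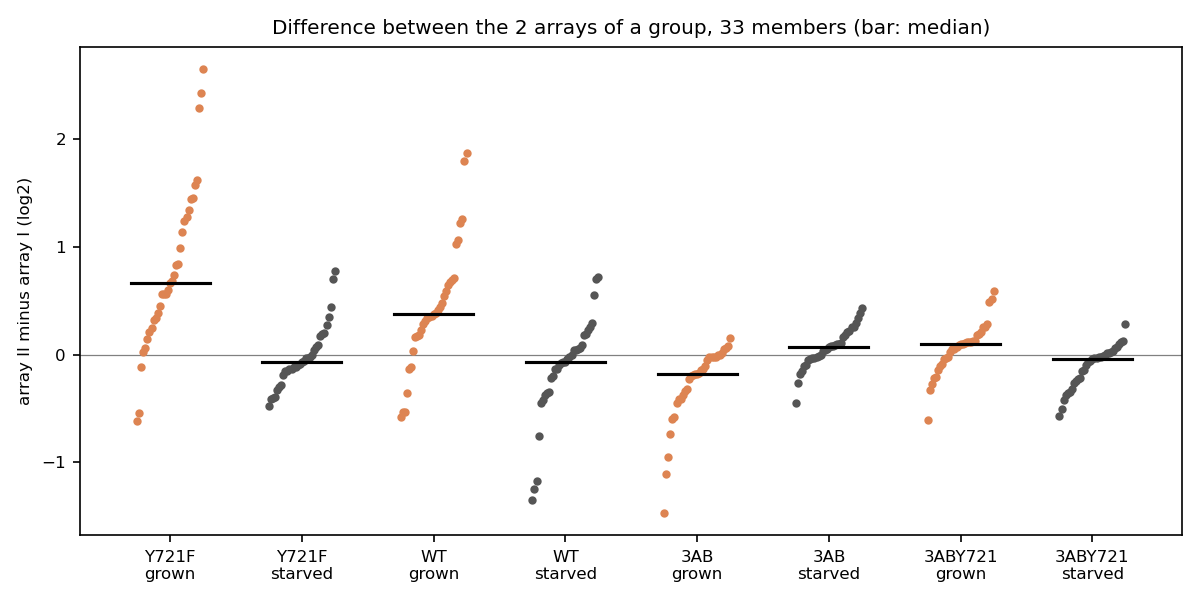
Difference of array II minus array I (log2, vertical axis) for each of the 33 genes (points) in the 8 groups of the steady-state experiment, with the median as a bar. Grown Y721F (median 0.66) and grown WT (0.38) lie mostly above 0 and grown 3AB (-0.18) mostly below it.

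Promoter sequence shows a feature that many of these genes share. Many were listed as readouts of the hypoxia response, so a higher share of HIF cores is partly built into the choice. The shares below describe the list and are not independent support for it. RefSeq promoter windows (GRCm38.p6, 250 bases before to 50 after each annotated start) were found for 34 of the 36 genes, 51 windows in all. The HIF core was searched as ACGTG or GCGTG on both strands, and the E-box CACGTG, which holds ACGTG on both strands and is also read by MYC-family factors, was counted as well. A core stood in 80.4% of the windows of these genes, against 43.8% of all 32851 windows and 49.3% of those of protein-coding genes. The letters ACGTG stood in 56.9% of their windows and 19.6% of all windows, and the E-box in 11.8% and 7.15%. Median GC content was 63.3% in their windows and 52.7% in all, and its part in these shares was not tested. The 250 bases before the start are shown for 5 genes on which the results below turn, 5′ to 3′ on the strand of the gene, with cores of either strand in capitals. Slc2a1 and Pgam1 were called higher in all 4 grown lines, Bnip3 and Egln3 in grown cells of 2 lines, and Ddit4 fell after CSF-1. Slc2a1 is at chr4:119108495-119108744 (plus strand), Pgam1 at chr19:41911621-41911870 (plus strand), Bnip3 at chr7:138909507-138909756 (minus strand), Egln3 at chr12:54203875-54204124 (minus strand) and Ddit4 at chr10:59951771-59952020 (minus strand).
Slc2a1: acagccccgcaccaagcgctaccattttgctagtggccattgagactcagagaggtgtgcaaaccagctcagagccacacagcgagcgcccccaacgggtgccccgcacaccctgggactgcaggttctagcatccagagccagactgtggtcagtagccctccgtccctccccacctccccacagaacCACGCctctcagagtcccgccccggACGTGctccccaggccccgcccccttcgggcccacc
Pgam1: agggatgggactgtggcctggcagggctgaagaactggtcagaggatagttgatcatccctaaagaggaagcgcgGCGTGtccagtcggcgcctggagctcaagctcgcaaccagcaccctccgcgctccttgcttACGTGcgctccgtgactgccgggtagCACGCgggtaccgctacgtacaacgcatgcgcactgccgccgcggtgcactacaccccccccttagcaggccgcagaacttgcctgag
Bnip3: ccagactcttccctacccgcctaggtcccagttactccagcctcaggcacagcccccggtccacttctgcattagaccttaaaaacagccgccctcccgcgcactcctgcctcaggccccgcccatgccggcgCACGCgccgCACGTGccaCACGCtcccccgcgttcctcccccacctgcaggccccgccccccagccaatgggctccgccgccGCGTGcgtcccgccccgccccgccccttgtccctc
Egln3: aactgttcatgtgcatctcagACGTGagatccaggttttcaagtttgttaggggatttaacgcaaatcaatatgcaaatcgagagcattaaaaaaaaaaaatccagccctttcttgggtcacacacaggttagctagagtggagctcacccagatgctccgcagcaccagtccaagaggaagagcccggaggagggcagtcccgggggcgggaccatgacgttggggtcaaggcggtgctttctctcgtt
Ddit4: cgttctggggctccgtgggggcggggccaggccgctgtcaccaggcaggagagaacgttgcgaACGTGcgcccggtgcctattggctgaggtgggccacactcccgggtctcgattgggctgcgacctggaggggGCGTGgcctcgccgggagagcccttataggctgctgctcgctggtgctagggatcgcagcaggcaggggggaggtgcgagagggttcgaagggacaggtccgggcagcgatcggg
Slc2a1 holds 2 cores here, starting 61 and 36 bases before its start, and Pgam1 holds 3. Bnip3 holds 5 matches, of which 2 are the strands of a single E-box, and Egln3 holds 1, at 229 bases before its start. Ddit4, a gene that fell, holds 2. Hilpda and Ldha have cores before a later annotated start inside the gene, shown as 30 bases each at chr6:29272571-29272600 and chr7:46845745-46845774 (both plus strand).
Hilpda: gatggccagcggACGTGccccagggcgagc
Ldha: ggcccagcctaCACGTGggttcccgCACGT
A match of letters describes the window and does not show that a factor binds there.

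The first comparison asked how starved cells answered CSF-1 within 180 min. Few of the 33 genes passed the test, and the gene called most often was Hilpda, which encodes a lipid droplet protein that restrains lipolysis and is induced by hypoxia. Hilpda read 7.30 and 7.62 at 0 min, 8.44 and 9.05 at 20 min, 10.45 and 9.42 at 60 min, and 9.41 and 8.78 at 180 min in Y721F cells. In WT cells Hilpda read 6.71 and 7.83 at 0 min, 9.60 and 9.68 at 20 min, 10.41 and 10.08 at 60 min, and 9.10 and 9.45 at 180 min. In both lines both arrays at each later time lay above both arrays at 0 min, and the mean was highest at 60 min. Differences are on the log2 scale, and a gene was called where limma gave an adjusted p under 0.05 over all genes and a fold above 1.5. Hilpda rose in Y721F cells by 2.48 at 60 min (SE 0.39, adjusted p = 0.0354), and in WT cells by 2.37 at 20 min (adjusted p = 0.0462), 2.98 at 60 min (adjusted p = 0.00534) and 2.01 at 180 min (adjusted p = 0.0294). Its Y721F values at 20 and 180 min were 1.29 and 1.64 (adjusted p = 0.67 and 0.0901), and the 180 min value had an adjusted p of 0.0193 with the array number as a block. The 3 later times of a line share its 0 min arrays, so these values are not independent of each other. Hilpda lost its call in Y721F cells at 60 min without Y721F 0 min array I (2.32, adjusted p = 0.421), without Y721F 0 min array II (2.64, adjusted p = 0.132) and without Y721F 60 min array I (1.96, adjusted p = 0.553). Hilpda lost its call in WT cells at 20 min under quantile normalization (2.38, adjusted p = 0.0518), without WT 0 min array I (1.81, adjusted p = 0.536), without WT 20 min array I (2.41, adjusted p = 0.298) and without WT 20 min array II (2.33, adjusted p = 0.357). Hilpda lost its call in WT cells at 60 min without WT 0 min array I (2.42, adjusted p = 0.0641) and without WT 60 min array I (2.81, adjusted p = 0.0614). Hilpda lost its call in WT cells at 180 min without WT 0 min array I (1.45, adjusted p = 0.26), without WT 180 min array I (2.18, adjusted p = 0.0793) and without WT 180 min array II (1.83, adjusted p = 0.258).

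Slc2a1, the gene of the glucose transporter GLUT1, read 9.85 and 11.03 at 0 min, 10.78 and 11.09 at 20 min, 11.36 and 11.90 at 60 min, and 11.52 and 11.83 at 180 min in Y721F cells. Slc2a1 in WT cells read 10.12 and 10.54 at 0 min, 10.92 and 11.23 at 20 min, 12.36 and 12.30 at 60 min, and 11.76 and 12.17 at 180 min. Y721F array II at 0 min stood above array I at 20 min, and in both lines all arrays at 60 and 180 min lay above those at 0 min. Slc2a1 measured 1.19 at 60 min and 1.24 at 180 min in Y721F cells (adjusted p = 0.398 and 0.114, or 0.0109 and 0.00545 with the block). In WT cells it rose by 2.0 at 60 min (SE 0.33, adjusted p = 0.019) and 1.64 at 180 min (adjusted p = 0.0304). Slc2a1 lost its call at 60 min without WT 0 min array I (1.79, adjusted p = 0.234), without WT 0 min array II (2.21, adjusted p = 0.0592) and without WT 60 min array I (1.97, adjusted p = 0.158). Slc2a1 lost its call at 180 min without any 1 of its 4 arrays (1.43 to 1.85, adjusted p between 0.0705 and 0.265).

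Arrays of the same number deviated together within each line of the time course, so counts with array number as a block are given beside these. In Y721F cells 0 of the 33 genes were called at 20 min (0.0802% of all genes), 1 rose at 60 min (0.176%) and 1 fell at 180 min (0.261%). With the block the Y721F counts were 0, 2 and 7, where 0.246%, 0.853% and 5.39% of all genes were called. At 20 min in Y721F cells 1 of the 33 genes had an unadjusted p under 0.05, as did 6.81% of all genes. In WT cells 1 rose at 20 min (0.16% of all genes), 2 rose at 60 min (0.632%), and 2 rose and 2 fell at 180 min (2.16%). With the block the WT counts were 1, 8 and 9, where 0.431%, 3.74% and 7.81% of all genes were called. The median difference of the 33 genes at 60 min was 0.03 in Y721F cells and 0.30 in WT cells, against -0.01 and -0.02 over all genes. These counts moved when 1 array was left out, but the group concerned then held 1 array. Lower precision and dependence on the array left out cannot be told apart by such counts. Of the macrophage markers, Mertk fell at 180 min in both lines and Cd14 rose in WT cells at each time, and their part in the result was not tested.

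The genes that passed only with the block included the lactate transporter gene Slc16a1, Hif1a, Vegfa and Plod2. Slc16a1, which encodes MCT1, read 8.44 and 9.08 at 0 min, 8.48 and 9.06 at 20 min, 8.66 and 9.18 at 60 min, and 9.84 and 9.83 at 180 min in Y721F cells. In WT cells it read 7.93 and 8.25 at 0 min, 9.04 and 8.40 at 20 min, 9.96 and 8.66 at 60 min, and 9.41 and 9.86 at 180 min. The 180 min arrays stood above the 0 min arrays in both lines, and the WT arrays at 60 min lay far apart. Slc16a1 measured 1.08 in Y721F cells and 1.55 in WT cells at 180 min (adjusted p = 0.244 and 0.0669, or 0.0596 and 0.0101 with the block). Hif1a, the oxygen-regulated subunit of HIF, read 10.71 and 11.21 at 0 min, 10.64 and 11.33 at 20 min, 11.25 and 11.63 at 60 min, and 11.70 and 11.93 at 180 min in Y721F cells. Hif1a in WT cells read 10.94 and 11.02 at 0 min, 11.26 and 11.28 at 20 min, 11.75 and 11.56 at 60 min, and 11.62 and 11.98 at 180 min. The 180 min arrays of Hif1a lay above those at 0 min in both lines, by 0.86 in Y721F cells (adjusted p = 0.124, or 0.00615 with the block) and 0.82 in WT cells (adjusted p = 0.0958, or 0.00364).

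Vegfa measured 0.64 at 60 min and 0.35 at 180 min in Y721F cells, with block adjusted p of 0.458 and 0.548. In WT cells it measured 1.44 and 1.39 (adjusted p = 0.0939 and 0.0534, or 0.0167 and 0.00947 with the block). Plod2, a lysyl hydroxylase of collagen, measured 0.84 in Y721F cells and 0.82 in WT cells at 180 min (adjusted p = 0.434 and 0.436, or 0.0171 and 0.0121 with the block).

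Other genes fell. Ddit4, which encodes the mTORC1 inhibitor REDD1, read 7.77 and 7.47 at 0 min, 7.64 and 7.63 at 20 min, 7.26 and 7.05 at 60 min, and 6.98 and 6.81 at 180 min in Y721F cells. Ddit4 in WT cells read 7.14 and 7.12 at 0 min, 7.13 and 7.22 at 20 min, 6.67 and 6.53 at 60 min, and 6.57 and 6.49 at 180 min. Both arrays at 60 and 180 min lay below both arrays at 0 min in each line. At 180 min Ddit4 fell by 0.73 in Y721F cells (SE 0.12, adjusted p = 0.0458) and by 0.60 in WT cells (SE 0.12, adjusted p = 0.0331). Pfkm, the muscle-type subunit of phosphofructokinase, read 9.02 and 8.71 at 0 min, 8.88 and 8.76 at 20 min, 8.75 and 8.67 at 60 min, and 7.94 and 8.33 at 180 min in Y721F cells. In WT cells it read 8.89 and 8.75 at 0 min, 8.62 and 8.97 at 20 min, 8.48 and 8.85 at 60 min, and 8.05 and 8.07 at 180 min. The 180 min arrays of Pfkm lay below those at 0 min in both lines. Its fall of 0.76 at 180 min passed in WT cells (adjusted p = 0.0467), and in Y721F cells it measured -0.73 (adjusted p = 0.088, or 0.0196 with the block). Ddit4 lost its call in Y721F cells without Y721F 0 min array I (-0.58, adjusted p = 0.512), without Y721F 180 min array I (-0.81, adjusted p = 0.394) and without Y721F 180 min array II (-0.64, adjusted p = 0.17). Ddit4 lost its call in WT cells under quantile normalization (-0.57, adjusted p = 0.0308 at a fold under 1.5) and without any 1 of its 4 arrays (-0.64 to -0.56, adjusted p between 0.0983 and 0.264). Pfkm lost its call in WT cells under quantile normalization (-0.79, adjusted p = 0.0532) and without any 1 of its 4 arrays (-0.83 to -0.69, adjusted p between 0.114 and 0.309). Ndrg1 measured -0.81 in Y721F cells and -0.82 in WT cells at 180 min, with adjusted p of 0.0577 and 0.0439 under the block.

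Whether the answer differed between the lines was tested as a contrast of its own. By limma 0 of the 33 genes were called at 20, 60 and 180 min, with and without the block, and so were 0% of all genes without it. At an unadjusted p under 0.05, 1, 0 and 1 of the 33 genes passed at those times, as did 4.06%, 3.21% and 1.39% of all genes. Hilpda differed by -0.50 at 60 min (Y721F minus WT, 95% interval -1.72 to 0.72) and Slc2a1 by -0.81 (-1.83 to 0.21), so differences of either sign were not resolved. The 2 genes with an unadjusted p under 0.05 were the hexokinase gene Hk3 at 20 min, at -0.36 (-0.69 to -0.02, adjusted p = 1), and Vegfa at 180 min, at -1.04 (-2.06 to -0.01, adjusted p = 1). Before CSF-1 was added, 0 of the 33 genes were called between Y721F and WT cells by limma (0.727% of all genes). An unadjusted p under 0.05 was found for 3 of the 33, a share near the 9.63% of all genes. With the block 2 were called (3.99% of all genes). One of these was Egln3, which encodes the HIF prolyl hydroxylase PHD3, at 8.76 and 8.74 in Y721F cells, against 7.29 and 7.51 in WT cells. The Egln3 difference was 1.35 (adjusted p = 0.0802, or 0.000214 with the block), and the other gene was Pfkfb4 at -0.69 (adjusted p = 0.267, or 0.0031). From 60 to 180 min limma called 0 of the 33 genes in Y721F cells (0.0301% of all genes) and 0 in WT cells (0.0251%), with and without the block. There 4 and 4 had an unadjusted p under 0.05, as did 6.84% and 5.49% of all genes.

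**Figure D2:**
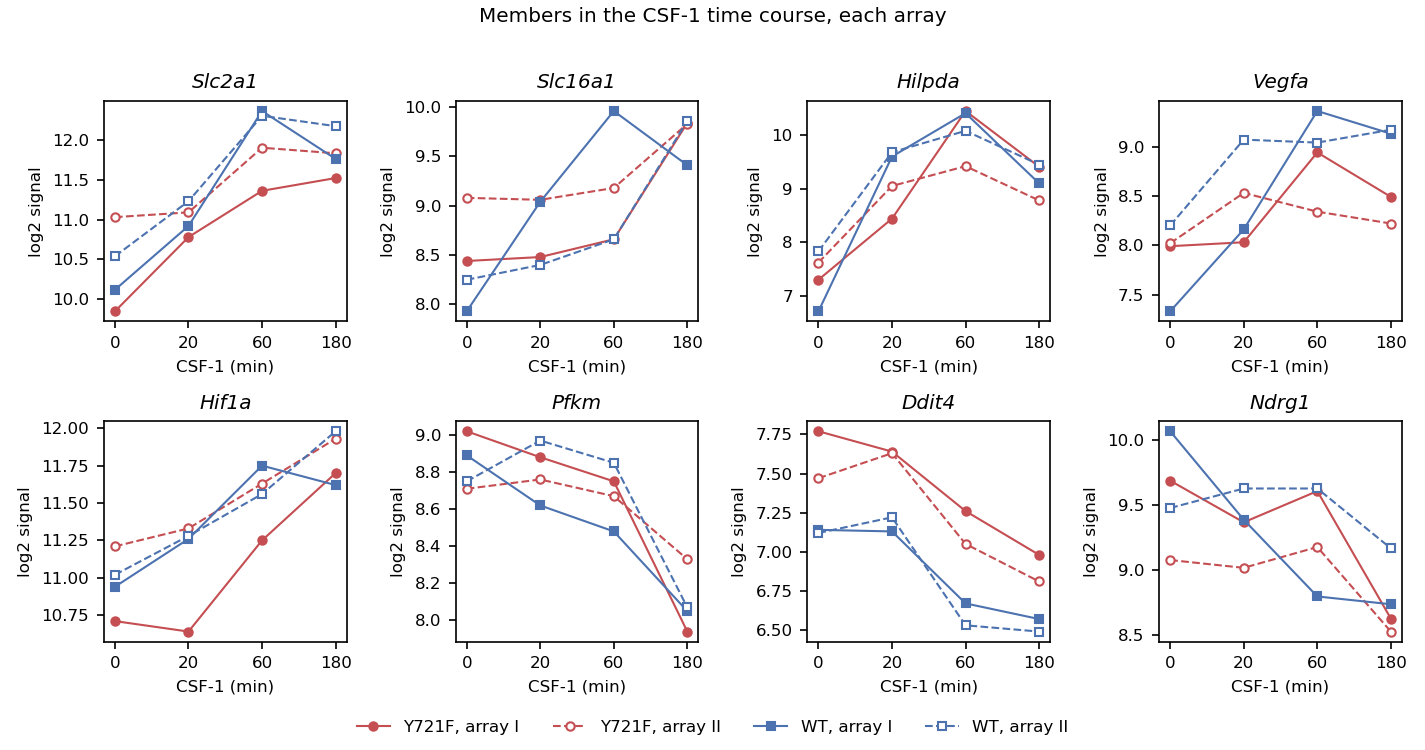
Log2 signal of 8 genes in each array (vertical axis) at 0, 20, 60 and 180 min of CSF-1 (times evenly spaced, not to scale) in Y721F (circles) and WT cells (squares), with array I filled and array II open. Hilpda and Slc2a1 stand higher at 60 and 180 min than at 0 min in both lines, and Ddit4 is lowest at 180 min.

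The second comparison asked how cells grown with CSF-1 differed from starved cells of the same line. Transporters, glycolytic enzymes and collagen-modifying enzymes made up most of the genes that rose, and 0 fell in any line with all arrays in the fit. Without WT grown array II, some of the 33 genes were called downward in WT cells. Of the 33 genes, 20 rose in Y721F cells (4.94% of all genes called, 3.48% upward), 13 in WT cells (5.32%, 2.3% upward), 5 in 3AB cells (0.687%, 0.431% upward) and 14 in 3ABY721 cells (1.41%, 0.742% upward). Their median difference was 1.16 in Y721F, 0.61 in WT, 0.62 in 3AB and 0.77 in 3ABY721 cells, against medians of all genes of 0.01, -0.03, -0.01 and 0.0. The lines shared an estimate of spread for each gene, but p was adjusted within each comparison. An equal difference could thus be called in WT and not in 3AB cells, so the counts do not rank the lines. Both grown arrays lay above both starved arrays in 29, 22, 26 and 29 of the 33 genes in Y721F, WT, 3AB and 3ABY721 cells, as 25.1%, 19.5%, 26.2% and 24.5% of all genes did. In all 4 lines they did so for 21 of the 33 genes, as for 6.07% of all genes. Because the genes were chosen with earlier results of these data known, such shares describe the list and are not independent support for it.

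The 3 transporter genes rose in Y721F, WT and 3ABY721 cells, and 2 of the 3 rose in 3AB cells. Slc2a1 read 12.19 and 13.33 in grown Y721F cells, against 9.81 and 9.48 in starved Y721F cells, and 12.12 and 12.51 in grown WT cells, against 10.67 and 10.31 in starved WT cells. It read 11.47 and 10.87 in grown 3AB cells, against 9.30 and 9.38 in starved 3AB cells, and 12.19 and 12.32 in grown 3ABY721 cells, against 10.16 and 9.93 in starved 3ABY721 cells. No grown array of any line overlapped a starved one of that line. Slc2a1 rose by 3.12 in Y721F cells (SE 0.29, adjusted p = 3.62e-05), by 1.83 in WT cells (adjusted p = 0.00264), by 1.83 in 3AB cells (adjusted p = 0.0103) and by 2.21 in 3ABY721 cells (adjusted p = 0.00159). Slc16a3 is the gene of the lactate exporter MCT4. Slc16a3 read 10.89 and 11.55 in grown Y721F cells, against 8.91 and 9.08 in starved Y721F cells, and 10.75 and 11.46 in grown WT cells, against 10.12 and 9.74 in starved WT cells. It read 10.70 and 10.29 in grown 3AB cells, against 9.16 and 9.23 in starved 3AB cells, and 11.07 and 11.35 in grown 3ABY721 cells, against 9.69 and 9.55 in starved 3ABY721 cells. Its groups did not overlap within any line, and it rose by 2.23, 1.18, 1.30 and 1.59 in Y721F, WT, 3AB and 3ABY721 cells (adjusted p between 0.000149 and 0.0269). Slc16a1 read 10.15 and 9.53 in grown Y721F cells, against 8.99 and 8.59 in starved Y721F cells, and 10.49 and 9.96 in grown WT cells, against 8.14 and 8.86 in starved WT cells. It read 10.01 and 10.09 in grown 3AB cells, against 9.24 and 9.46 in starved 3AB cells, and 9.91 and 9.98 in grown 3ABY721 cells, against 8.86 and 8.54 in starved 3ABY721 cells. Slc16a1 rose by 1.05 in Y721F, 1.73 in WT and 1.25 in 3ABY721 cells, and measured 0.70 in 3AB cells (adjusted p = 0.289). The calls of Slc2a1 in Y721F, WT and 3ABY721 cells, Slc16a3 in Y721F cells and of Slc16a1 in WT cells held in every setting and without each array in turn. Slc2a1 lost its call in 3AB cells without 3AB starved array I (1.79, adjusted p = 0.135), without 3AB starved array II (1.87, adjusted p = 0.0867) and without 3AB grown array I (1.53, adjusted p = 0.157). Slc16a3 lost its call in WT cells without WT starved array II (0.99, adjusted p = 0.0911) and without WT grown array II (0.82, adjusted p = 0.0597). Slc16a3 lost its call in 3AB cells without any 1 of its 4 arrays (1.10 to 1.51, adjusted p between 0.107 and 0.279). Slc16a3 lost its call in 3ABY721 cells without 3ABY721 grown array II (1.45, adjusted p = 0.0826). Slc16a1 lost its call in Y721F cells under quantile normalization (0.88, adjusted p = 0.0526), without Y721F starved array II (0.85, adjusted p = 0.254) and without Y721F grown array I (0.74, adjusted p = 0.154). Slc16a1 lost its call in 3ABY721 cells without any 1 of its 4 arrays (1.09 to 1.41, adjusted p between 0.0975 and 0.231).

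Of the 13 measured glycolytic enzymes, 8 rose in Y721F, 5 in WT, 2 in 3AB and 5 in 3ABY721 cells. Pfkl encodes the liver-type subunit of phosphofructokinase, which acts at the committed step of glycolysis. Pfkl read 11.04 and 11.64 in grown Y721F cells, against 9.52 and 9.59 in starved Y721F cells, and 10.47 and 10.95 in grown WT cells, against 9.53 and 9.57 in starved WT cells. It read 10.46 and 10.26 in grown 3AB cells, against 9.39 and 9.37 in starved 3AB cells, and 10.75 and 10.87 in grown 3ABY721 cells, against 9.45 and 9.23 in starved 3ABY721 cells. The starved arrays of the 4 lines lay close together and every grown array stood above them. Pfkl rose by 1.79, 1.16, 0.98 and 1.47 in Y721F, WT, 3AB and 3ABY721 cells (adjusted p = 0.000112, 0.00304, 0.0312 and 0.00126). Pgam1 encodes a phosphoglycerate mutase. Pgam1 read 12.09 and 12.41 in grown Y721F cells, against 11.36 and 11.21 in starved Y721F cells, and 11.78 and 12.01 in grown WT cells, against 11.15 and 11.15 in starved WT cells. It read 11.67 and 11.65 in grown 3AB cells, against 10.93 and 11.04 in starved 3AB cells, and 12.05 and 12.15 in grown 3ABY721 cells, against 11.22 and 11.34 in starved 3ABY721 cells. It too overlapped in no line, and rose by 0.97, 0.75, 0.68 and 0.82 in Y721F, WT, 3AB and 3ABY721 cells (adjusted p between 0.000996 and 0.0375). The calls of Pfkl in Y721F, WT and 3ABY721 cells and of Pgam1 in Y721F and WT cells held in every setting and without each array in turn. Pfkl lost its call in 3AB cells under quantile normalization (0.90, adjusted p = 0.0572) and without any 1 of its 4 arrays (0.88 to 1.08, adjusted p between 0.154 and 0.279). Pgam1 lost its call in 3AB cells under quantile normalization (0.62, adjusted p = 0.0709), with the replicate block (0.68, adjusted p = 0.0617), with the mean of all its probe sets (0.64, adjusted p = 0.0556) and without any 1 of its 4 arrays (0.62 to 0.73, adjusted p between 0.141 and 0.344). Pgam1 lost its call in 3ABY721 cells without 3ABY721 starved array I (0.76, adjusted p = 0.106), without 3ABY721 grown array I (0.87, adjusted p = 0.0522) and without 3ABY721 grown array II (0.77, adjusted p = 0.117).

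Pfkp encodes the platelet-type phosphofructokinase subunit. Pfkp read 11.30 and 12.13 in grown Y721F cells, against 10.09 and 9.96 in starved Y721F cells, and 10.61 and 11.28 in grown WT cells, against 9.96 and 10.22 in starved WT cells. It read 10.33 and 10.15 in grown 3AB cells, against 9.19 and 9.29 in starved 3AB cells, and 11.15 and 11.12 in grown 3ABY721 cells, against 9.93 and 9.93 in starved 3ABY721 cells. It rose by 1.69 in Y721F, 0.86 in WT and 1.21 in 3ABY721 cells. Tpi1 encodes triosephosphate isomerase. Tpi1 read 12.76 and 12.90 in grown Y721F cells, against 11.95 and 11.83 in starved Y721F cells, and 12.26 and 12.70 in grown WT cells, against 11.85 and 11.91 in starved WT cells. It read 12.42 and 12.31 in grown 3AB cells, against 11.70 and 11.80 in starved 3AB cells, and 12.59 and 12.72 in grown 3ABY721 cells, against 11.88 and 11.90 in starved 3ABY721 cells. It rose by 0.94, 0.60 and 0.77 in Y721F, WT and 3ABY721 cells, and neither gene's grown arrays overlapped its starved arrays in any line. In 3AB cells Pfkp and Tpi1 measured 1.0 and 0.62 (adjusted p = 0.0812 and 0.0812), no less than in WT cells, where both were called. The calls of both genes in Y721F cells held in every setting and without each array in turn. Pfkp lost its call in WT cells under quantile normalization (0.84, adjusted p = 0.0554), without WT starved array I (0.73, adjusted p = 0.229), without WT starved array II (0.99, adjusted p = 0.087) and without WT grown array II (0.52, adjusted p = 0.25). Pfkp lost its call in 3ABY721 cells without any 1 of its 4 arrays (1.19 to 1.22, adjusted p between 0.129 and 0.159). Tpi1 lost its call in WT cells without WT starved array I (0.57, adjusted p = 0.132), without WT starved array II (0.63, adjusted p = 0.0783) and without WT grown array II (0.38, adjusted p = 0.136). Tpi1 lost its call in 3ABY721 cells without any 1 of its 4 arrays (0.70 to 0.83, adjusted p between 0.0804 and 0.209).

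Ldha encodes the lactate dehydrogenase subunit that favours making lactate. Ldha read 13.24 and 13.45 in grown Y721F cells, against 12.55 and 12.46 in starved Y721F cells, and 12.89 and 13.07 in grown WT cells, against 12.51 and 12.60 in starved WT cells. It read 12.93 and 12.79 in grown 3AB cells, against 12.30 and 12.34 in starved 3AB cells, and 13.11 and 13.21 in grown 3ABY721 cells, against 12.51 and 12.50 in starved 3ABY721 cells. Grown arrays lay above starved ones in each line, and the WT arrays were the closest. Ldha rose by 0.84 in Y721F cells (adjusted p = 0.00145) and 0.66 in 3ABY721 cells (adjusted p = 0.017), and measured 0.43 in WT and 0.54 in 3AB cells (adjusted p = 0.061 and 0.0771). Ldha lost its call in 3ABY721 cells without any 1 of its 4 arrays (0.61 to 0.71, adjusted p between 0.0931 and 0.219).

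Pkm, pyruvate kinase, read 12.50 and 12.89 in grown Y721F cells, against 12.03 and 12.01 in starved Y721F cells, and 12.63 and 12.66 in grown WT cells, against 12.14 and 11.94 in starved WT cells. It rose by 0.68 in Y721F and 0.61 in WT cells. Hk2, the hexokinase that starts glycolysis in many growing cells, read 9.46 and 10.70 in grown Y721F cells, against 8.50 and 8.35 in starved Y721F cells, and rose there by 1.66 (adjusted p = 0.00365). Pgk1, phosphoglycerate kinase, read 12.94 and 13.39 in grown Y721F cells, against 12.26 and 12.61 in starved Y721F cells, and rose there by 0.73 (adjusted p = 0.0235). The groups of these 3 genes did not overlap in Y721F cells. Pkm lost its call in Y721F cells without Y721F starved array II (0.67, adjusted p = 0.0915) and without Y721F grown array II (0.48, adjusted p = 0.0852). Pkm lost its call in WT cells with the mean of all its probe sets (0.57, adjusted p = 0.0194 at a fold under 1.5), without WT starved array II (0.51, adjusted p = 0.117) and without WT grown array I (0.62, adjusted p = 0.0923). Hk2 lost its call in Y721F cells without Y721F starved array II (1.58, adjusted p = 0.0596). Pgk1 lost its call in Y721F cells without Y721F starved array I (0.56, adjusted p = 0.138), without Y721F starved array II (0.91, adjusted p = 0.0543) and without Y721F grown array II (0.51, adjusted p = 0.164). Hk3, Pfkm, Aldoa and Aldoc were called in no line, with differences between -0.22 and 0.74. The probe set that stands for Hk1 correlated over the 32 arrays, with r between 0.89 and 0.945, with 17 probe sets that name the ribosomal protein gene Rpl17, of which 16 also name Hk1, and was called in none of the 4 lines. A different Hk1 probe set, tried after the data were seen, had r between -0.168 and 0.016 with those 17 probe sets. It rose in Y721F cells by 0.89 (adjusted p = 0.00264) and in 3ABY721 cells by 0.72 (adjusted p = 0.022). The 3ABY721 call was lost with the block (adjusted p = 0.0512), and the level of Hk1 was not settled.

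All 3 collagen-modifying enzymes rose in Y721F, WT and 3ABY721 cells, and 1 of the 3 rose in 3AB cells. Plod2 read 10.80 and 11.54 in grown Y721F cells, against 8.48 and 8.41 in starved Y721F cells, and 9.23 and 10.26 in grown WT cells, against 8.12 and 8.41 in starved WT cells. It read 7.14 and 6.56 in grown 3AB cells, against 5.36 and 5.21 in starved 3AB cells, and 9.90 and 10.01 in grown 3ABY721 cells, against 7.83 and 7.80 in starved 3ABY721 cells. The grown 3AB arrays of Plod2 lay under the starved arrays of the other lines. Plod2 rose by 2.73, 1.48, 1.57 and 2.14 in Y721F, WT, 3AB and 3ABY721 cells (adjusted p = 0.000112, 0.00844, 0.0261 and 0.00183). P4ha1 and P4ha2 encode catalytic subunits of collagen prolyl 4-hydroxylase. P4ha1 read 10.43 and 10.99 in grown Y721F cells, against 8.92 and 8.92 in starved Y721F cells, and 10.34 and 10.93 in grown WT cells, against 9.55 and 9.74 in starved WT cells. It read 10.36 and 10.18 in grown 3AB cells, against 9.25 and 9.41 in starved 3AB cells, and 10.31 and 10.36 in grown 3ABY721 cells, against 9.23 and 8.81 in starved 3ABY721 cells. P4ha1 rose by 1.79, 0.99 and 1.32 in Y721F, WT and 3ABY721 cells. P4ha2 read 8.59 and 10.03 in grown Y721F cells, against 6.91 and 7.0 in starved Y721F cells, and 8.66 and 8.08 in grown WT cells, against 6.62 and 6.55 in starved WT cells. It read 6.66 and 6.47 in grown 3AB cells, against 6.0 and 5.74 in starved 3AB cells, and 8.06 and 7.92 in grown 3ABY721 cells, against 6.40 and 6.41 in starved 3ABY721 cells. P4ha2 rose by 2.36, 1.79 and 1.59 in those lines. The groups of neither gene overlapped in any line, and in 3AB cells P4ha1 and P4ha2 measured 0.94 and 0.70 (adjusted p = 0.0626 and 0.406). The calls of Plod2 in Y721F and 3ABY721 cells, P4ha1 in Y721F cells and of P4ha2 in Y721F cells held in every setting and without each array in turn. Plod2 lost its call in WT cells without WT starved array I (1.34, adjusted p = 0.0786). Plod2 lost its call in 3AB cells without any 1 of its 4 arrays (1.28 to 1.86, adjusted p between 0.0745 and 0.271). P4ha1 lost its call in WT cells without WT starved array I (0.90, adjusted p = 0.104) and without WT grown array II (0.70, adjusted p = 0.0664). P4ha1 lost its call in 3ABY721 cells without 3ABY721 starved array II (1.11, adjusted p = 0.0809) and without 3ABY721 grown array II (1.29, adjusted p = 0.0778). P4ha2 lost its call in WT cells without WT grown array I (1.50, adjusted p = 0.0658). P4ha2 lost its call in 3ABY721 cells without any 1 of its 4 arrays (1.52 to 1.66, adjusted p between 0.141 and 0.18).

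Of the 3 oxygen-sensing genes, 2 rose in Y721F, 1 in WT, 0 in 3AB and 1 in 3ABY721 cells. Egln3 read 10.68 and 12.25 in grown Y721F cells, against 8.53 and 8.97 in starved Y721F cells, and 8.19 and 9.25 in grown WT cells, against 8.12 and 6.77 in starved WT cells. It read 8.10 and 6.63 in grown 3AB cells, against 5.85 and 5.67 in starved 3AB cells, and 9.23 and 9.01 in grown 3ABY721 cells, against 6.63 and 6.53 in starved 3ABY721 cells. The grown arrays were above the starved arrays of their line everywhere, but the 2 arrays lay more than 1 apart in grown Y721F, grown WT, starved WT and grown 3AB cells. Egln3 rose by 2.72 in Y721F cells (SE 0.53, adjusted p = 0.00845) and 2.54 in 3ABY721 cells (adjusted p = 0.0263), and measured 1.28 in WT and 1.61 in 3AB cells (adjusted p = 0.192 and 0.246). Egln3 lost its call in Y721F cells without Y721F starved array I (2.50, adjusted p = 0.052), without Y721F starved array II (2.94, adjusted p = 0.0611) and without Y721F grown array II (1.93, adjusted p = 0.0827). Egln3 lost its call in 3ABY721 cells without any 1 of its 4 arrays (2.43 to 2.65, adjusted p between 0.177 and 0.211). Egln1, which encodes the HIF prolyl hydroxylase PHD2, read 9.74 and 11.19 in grown Y721F cells, against 8.63 and 8.90 in starved Y721F cells, without overlap, and rose there by 1.70 (adjusted p = 0.00503). It was not called in WT, 3AB or 3ABY721 cells, at 0.43, 0.21 and 0.77. Hif1a read 11.67 and 11.31 in grown WT cells, against 10.90 and 10.86 in starved WT cells, without overlap, and rose there by 0.61 (adjusted p = 0.0195). Hif1a lost its call in WT cells under quantile normalization (0.58, adjusted p = 0.0205 at a fold under 1.5), without WT starved array I (0.63, adjusted p = 0.086), without WT starved array II (0.59, adjusted p = 0.0855) and without WT grown array I (0.43, adjusted p = 0.207). In Y721F cells Hif1a measured 0.54 with an adjusted p of 0.0349, at a fold under 1.5.

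Of the 8 other hypoxia-linked genes, 3 rose in Y721F, 1 in WT, 0 in 3AB and 1 in 3ABY721 cells. Bnip3 read 11.40 and 12.74 in grown Y721F cells, against 8.90 and 8.77 in starved Y721F cells, and 8.36 and 10.16 in grown WT cells, against 8.55 and 8.10 in starved WT cells. It read 10.07 and 9.33 in grown 3AB cells, against 8.20 and 8.49 in starved 3AB cells, and 10.85 and 10.52 in grown 3ABY721 cells, against 8.54 and 8.19 in starved 3ABY721 cells. Grown and starved arrays of Bnip3 overlapped in WT cells and in none of the other lines. Bnip3 rose by 3.24 in Y721F cells (SE 0.47, adjusted p = 0.00123) and 2.32 in 3ABY721 cells (adjusted p = 0.0229), and measured 0.94 in WT and 1.36 in 3AB cells. Hilpda read 8.81 and 10.43 in grown Y721F cells, against 7.59 and 7.78 in starved Y721F cells, and 8.88 and 9.22 in grown WT cells, against 7.06 and 7.76 in starved WT cells. It rose by 1.94 in Y721F and 1.64 in WT cells (adjusted p = 0.00925 and 0.0233), and measured 1.40 in 3AB and 1.50 in 3ABY721 cells. Bnip3 lost its call in 3ABY721 cells without any 1 of its 4 arrays (2.15 to 2.50, adjusted p between 0.126 and 0.211). Hilpda lost its call in grown Y721F cells without Y721F starved array I (1.84, adjusted p = 0.0504), without Y721F starved array II (2.03, adjusted p = 0.0729) and without Y721F grown array II (1.13, adjusted p = 0.0625). Hilpda lost its call in grown WT cells without WT starved array I (1.29, adjusted p = 0.178), without WT grown array I (1.81, adjusted p = 0.0828) and without WT grown array II (1.47, adjusted p = 0.071). Higd1a, a mitochondrial membrane protein gene, read 7.63 and 8.62 in grown Y721F cells, against 6.43 and 6.33 in starved Y721F cells, without overlap, and rose there by 1.75 (adjusted p = 0.00174). Vegfa and Ndrg1 measured 1.88 and 2.11 in Y721F cells (adjusted p = 0.0965 and 0.0687), where their grown arrays lay far apart, and neither was called in any of the 4 lines.

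Of the 3 flux regulators, Pdk1 rose in 2 lines and Pfkfb3 and Pfkfb4 in none. Pdk1 encodes a kinase that inhibits pyruvate dehydrogenase and so keeps pyruvate out of mitochondrial oxidation. It read 10.22 and 10.78 in grown Y721F cells, against 9.48 and 9.20 in starved Y721F cells, and 9.95 and 10.07 in grown 3ABY721 cells, against 9.08 and 8.93 in starved 3ABY721 cells. Without overlap in either line, Pdk1 rose by 1.16 in Y721F and 1.01 in 3ABY721 cells (adjusted p = 0.00523 and 0.0263). Pdk1 lost its call in Y721F cells without Y721F starved array II (1.02, adjusted p = 0.0866) and without Y721F grown array II (0.88, adjusted p = 0.055). Pdk1 lost its call in 3ABY721 cells with the replicate block (1.01, adjusted p = 0.067) and without any 1 of its 4 arrays (0.93 to 1.08, adjusted p between 0.141 and 0.257). Pfkfb3 and Pfkfb4 encode enzymes that set the level of a sugar phosphate that activates phosphofructokinase. Pfkfb3 read 7.31 and 6.77 in grown Y721F cells, against 7.73 and 7.34 in starved Y721F cells, and 8.24 and 7.71 in grown WT cells, against 8.45 and 8.43 in starved WT cells. It read 7.81 and 7.96 in grown 3AB cells, against 7.81 and 8.20 in starved 3AB cells, and 7.28 and 7.01 in grown 3ABY721 cells, against 7.97 and 7.40 in starved 3ABY721 cells. Pfkfb3 measured -0.50, -0.47, -0.12 and -0.54 in Y721F, WT, 3AB and 3ABY721 cells (adjusted p between 0.247 and 0.882). Pfkfb4 measured between -0.53 and -0.05 in the 4 lines and was called in none, and Ddit4 measured between 0.05 and 0.28.

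**Figure D3:**
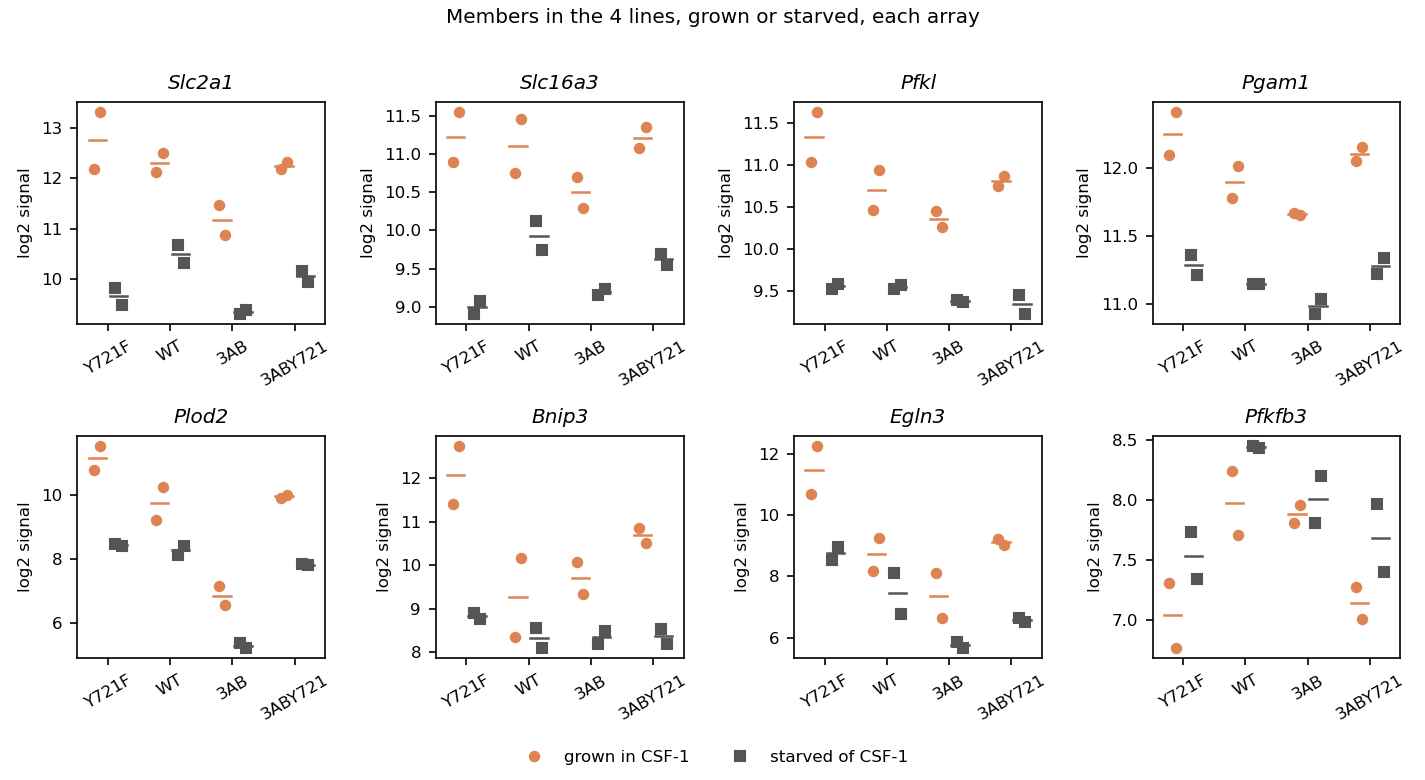
Log2 signal of 8 genes in each array (vertical axis) in grown (circles) and starved cells (squares) of the 4 lines, with the mean of 2 arrays as a bar. Grown arrays of Slc2a1 and Plod2 lie above the starved arrays of their line in every line, while those of Bnip3 overlap in WT.

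Called upward in all 4 lines were 5 of the 33 genes, Slc2a1, Slc16a3, Pfkl, Pgam1 and Plod2, and 42 of all 19938 genes (0.211%). In 3AB cells each of the 5 calls was lost without at least 1 array, that of Pfkl also under quantile normalization, and that of Pgam1 under quantile normalization, the block and the mean of its probe sets. A further 5, Slc16a1, Pfkp, Tpi1, P4ha1 and P4ha2, were called upward in 3 lines, and 12 in none. Macrophage markers summed on the linear scale to 23700 in grown Y721F cells, against 34200 in starved ones, and to 38000 in grown WT cells, against 47600. They summed to 37500 in grown 3AB cells, against 43100, and to 34700 in grown 3ABY721 cells, against 42200. Of the 8 markers 4, 3, 1 and 2 fell in Y721F, WT, 3AB and 3ABY721 cells. Of the other lists, S100a8 and Acp5 fell in Y721F cells, and Cd2 fell and Dcstamp rose in WT cells. The part of these markers in the result was not tested. Leaving out 1 array moved the counts of genes called. In Y721F cells 13 were called without starved array II and 25 without grown array I, and in WT cells 7 without starved array I and 8 without starved array II. In 3AB cells 1 was called without grown array II and 0 without any other array. In 3ABY721 cells 3 were called without grown array II and 5 without any other array.

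**Figure D4:**
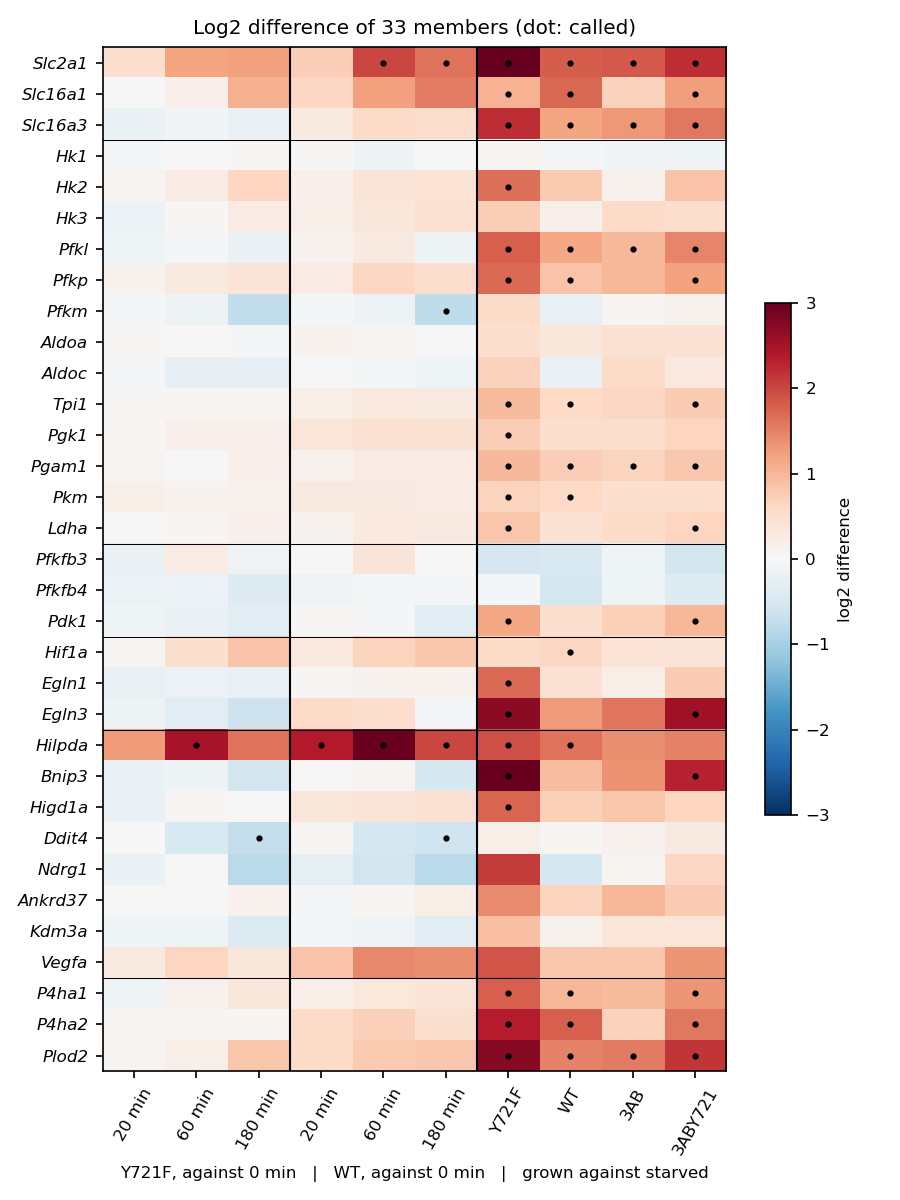
Log2 difference of the 33 genes (grouped by role) at 20, 60 and 180 min against 0 min in Y721F and WT cells and in grown against starved cells of the 4 lines, as colours (red positive, blue negative, ending at 3 and -3), with a dot where a gene was called. The dots stand mainly in the columns of grown cells, with 20, 13, 5 and 14 in Y721F, WT, 3AB and 3ABY721.

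Values at 180 min of CSF-1 and in grown cells can be set side by side for Y721F and WT. Of the 20 genes that rose in grown Y721F cells, 6 measured below 0 at 180 min, namely Slc16a3, Pfkl, Pdk1, Egln1, Egln3 and Bnip3. Bnip3 read 8.03 and 8.02 at 180 min, against 8.60 and 8.57 at 0 min, in Y721F cells. Egln3 read 8.05 and 8.23 at 180 min, against 8.76 and 8.74 at 0 min, in the same cells. For both genes the 180 min arrays lay below the 0 min arrays, at -0.56 and -0.61 (adjusted p = 0.52 and 0.429, or 0.0621 and 0.0329 with the block), while the growth differences were 3.24 and 2.72. Another 5 of the 20, Slc2a1, Slc16a1, Hk2, Hilpda and Plod2, measured above 1.5-fold at 180 min. In WT cells 13 genes rose in grown cells, of which Slc2a1, Slc16a1, Hif1a, Hilpda and Plod2 measured above 1.5-fold at 180 min and Pfkl below 0. The experiments used separate arrays and were fitted separately, and Pgam1 in starved WT cells read 11.81 and 11.73 at 0 min of the time course and 11.15 and 11.15 in the steady-state experiment. The difference between a 180 min answer and a growth difference was not tested.

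**Figure D5:**
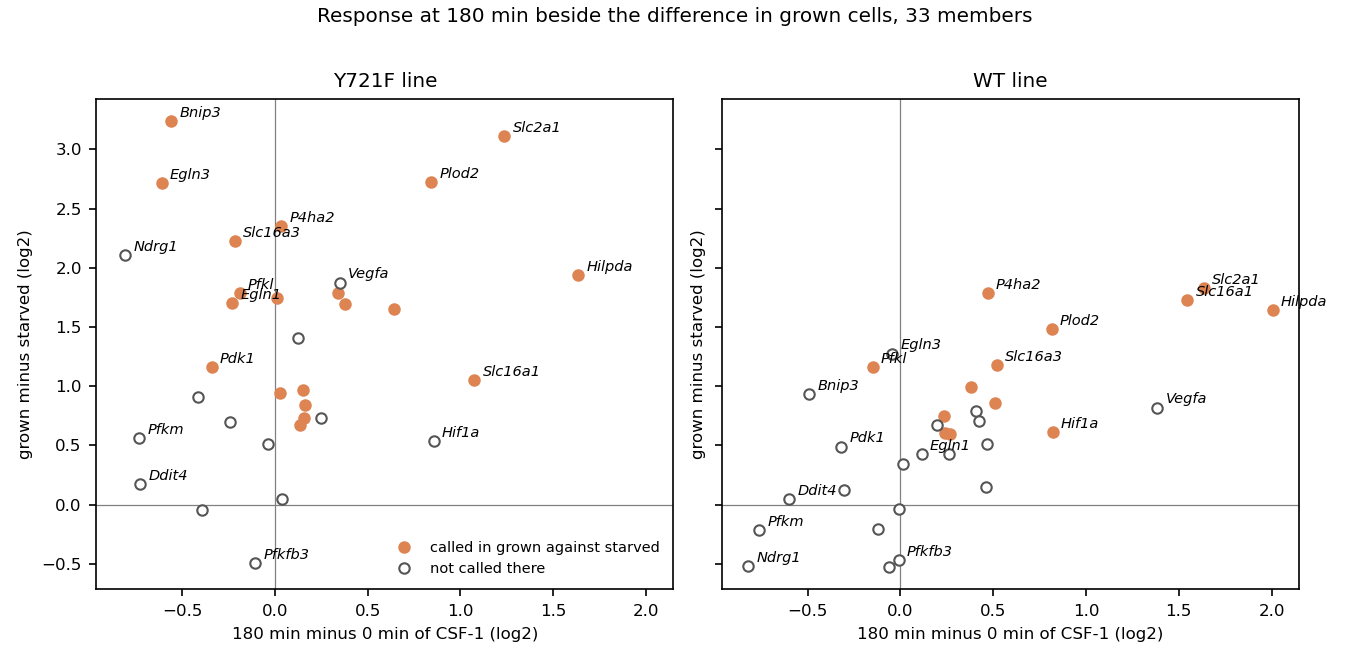
For each of the 33 genes, the difference of 180 min minus 0 min of CSF-1 (log2, horizontal axis) and of grown minus starved cells (log2, vertical axis), for Y721F and WT, filled where the gene was called in grown cells. Slc2a1 and Hilpda are positive on both axes in both lines, while Bnip3 (-0.56 and 3.24) and Egln3 (-0.61 and 2.72) have opposite signs in Y721F cells.

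The third comparison set lines without and with Tyr-721 side by side in the same state. Among grown cells, 7 of the 33 genes were higher and 1 was lower in Y721F than in WT cells, where 7.88% of all genes were called (2.94% higher and 4.94% lower). The median difference was 0.37 for the 33 genes and 0.05 for all genes. Bnip3 read 11.40 and 12.74 in grown Y721F cells, against 8.36 and 10.16 in grown WT cells, and was higher by 2.81 (SE 0.47, adjusted p = 0.00169). Egln3 read 10.68 and 12.25 in grown Y721F cells, against 8.19 and 9.25 in grown WT cells, and was higher by 2.75 (adjusted p = 0.00474). The groups of Bnip3 and of Egln3 did not overlap. Ndrg1 read 10.22 and 12.51 in grown Y721F cells, against 8.28 and 10.15 in grown WT cells, and was higher by 2.15 (adjusted p = 0.0476). Plod2 was higher by 1.43 (adjusted p = 0.00629), at 10.80 and 11.54 in grown Y721F cells, against 9.23 and 10.26 in grown WT cells. Egln1 was higher by 1.15 (adjusted p = 0.0291), at 9.74 and 11.19 in grown Y721F cells, against 9.24 and 9.40 in grown WT cells. These 3 genes did not overlap either, though the Y721F arrays of Ndrg1 and Egln1 lay more than 1 apart. Pdk1 was higher by 1.01 (adjusted p = 0.00744), at 10.22 and 10.78 in grown Y721F cells, against 9.22 and 9.76 in grown WT cells. Pfkl was higher by 0.63 (adjusted p = 0.0488), at 11.04 and 11.64 in grown Y721F cells, against 10.47 and 10.95 in grown WT cells. Pfkfb3 was lower, at 7.31 and 6.77 in grown Y721F cells, against 8.24 and 7.71 in grown WT cells (difference -0.94, adjusted p = 0.0226). Slc2a1, high in both grown lines, differed by 0.45 (adjusted p = 0.382).

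Most of these calls were lost without 1 array or another, which also left the group concerned with 1 array and less precision. Without Y721F grown array II 1 gene was called, Bnip3. Without Y721F grown array I 18 genes were called, without WT grown array I 2, and without WT grown array II 10. Bnip3 kept its call without each array in turn. Egln3 lost its call between grown lines without WT grown array I (2.22, adjusted p = 0.0626) and without Y721F grown array II (1.96, adjusted p = 0.0729). Ndrg1 lost its call between grown lines with the replicate block (2.15, adjusted p = 0.0541), without WT grown array I (1.22, adjusted p = 0.39) and without Y721F grown array II (1.01, adjusted p = 0.447). Plod2 lost its call between grown lines without WT grown array I (0.91, adjusted p = 0.0791) and without Y721F grown array II (1.06, adjusted p = 0.0871). Egln1 lost its call between grown lines without WT grown array I (1.07, adjusted p = 0.157), without WT grown array II (1.23, adjusted p = 0.0534) and without Y721F grown array II (0.42, adjusted p = 0.249). Pdk1 lost its call between grown lines without WT grown array I (0.74, adjusted p = 0.0993) and without Y721F grown array II (0.73, adjusted p = 0.101). Pfkl lost its call between grown lines with median centring (0.60, adjusted p = 0.0649), without WT grown array I (0.39, adjusted p = 0.368) and without Y721F grown array II (0.33, adjusted p = 0.419). Pfkfb3 lost its call between grown lines without WT grown array I (-0.67, adjusted p = 0.216) and without Y721F grown array II (-0.67, adjusted p = 0.218). Macrophage markers summed to 23700 in grown Y721F cells and 38000 in grown WT cells, with 4 of 8 lower. The fibroblast list summed to 775 in grown Y721F cells and 448 in grown WT cells, with Pdgfra higher, the osteoclast list to 11200 in Y721F and 7940 in WT cells, and the lymphocyte list to 217 in Y721F and 329 in WT cells, with Cd2 lower. The part of these markers in the result was not tested.

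In starved cells 4 of the 33 genes were lower in Y721F than in WT cells and 0 higher, where 11.1% of all genes were called (7.66% lower), so the share was near that of all genes. Pfkfb4 read 7.92 and 7.89 in starved Y721F cells, against 8.86 and 8.79 in starved WT cells (difference -0.92, SE 0.14, adjusted p = 0.000597). Slc16a3 read 8.91 and 9.08 in starved Y721F cells, against 10.12 and 9.74 in starved WT cells (difference -0.94, adjusted p = 0.0183). Neither gene's groups overlapped. Pfkfb3 was lower, at 7.73 and 7.34 in starved Y721F cells, against 8.45 and 8.43 in starved WT cells (difference -0.91, adjusted p = 0.019). P4ha1 was lower, at 8.92 and 8.92 in starved Y721F cells, against 9.55 and 9.74 in starved WT cells (difference -0.73, adjusted p = 0.0297). Of these 4 calls, that of Pfkfb4 held without each array in turn, and 1 or 2 calls were left when 1 array was left out. Slc16a3 lost its call between starved lines under quantile normalization (-0.71, adjusted p = 0.0766), without WT starved array I (-0.75, adjusted p = 0.12), without Y721F starved array I (-0.85, adjusted p = 0.0941) and without Y721F starved array II (-1.02, adjusted p = 0.0638). Pfkfb3 lost its call between starved lines under quantile normalization (-0.76, adjusted p = 0.0506), without WT starved array I (-0.90, adjusted p = 0.073), without WT starved array II (-0.92, adjusted p = 0.0788) and without Y721F starved array II (-0.71, adjusted p = 0.157). P4ha1 lost its call between starved lines under quantile normalization (-0.50, adjusted p = 0.133) and without any 1 of its 4 arrays (-0.82 to -0.63, adjusted p between 0.0604 and 0.157). The macrophage markers summed to 34200 in starved Y721F cells and 47600 in starved WT cells, with 4 of 8 lower. The fibroblast list summed to 922 in starved Y721F cells and 509 in starved WT cells, with Pdgfra higher, the osteoclast list to 12600 in Y721F and 10500 in WT cells, with Dcstamp higher, and the lymphocyte list to 261 in Y721F and 648 in WT cells, with Cd2 lower. The part of these markers was not tested.

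The difference between these growth effects (Y721F minus WT) was positive in 30 of the 33 genes with a median of 0.67, against 0.04 over all genes. By limma 0 of the 33 were called (0.0903% of all genes), with and without the block. At an unadjusted p under 0.05, 16 of the 33 passed, as did 12.7% of all genes. For Bnip3 it was 2.30 (95% interval 0.86 to 3.74, adjusted p = 0.277) and for Slc2a1 1.29 (0.40 to 2.18, adjusted p = 0.282). Without Y721F grown array I 13 genes were called, and without WT grown array II 4.

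Between grown 3AB and 3ABY721 cells 1 of the 33 genes was higher and 2 were lower in 3AB (1.18% of all genes called). The difference was positive in 6 of the 33 genes, with a median of -0.30, against -0.01 over all genes. The median had the opposite sign in grown Y721F against WT cells, and Plod2, lower here, was higher there. Whether the 2 pairs of lines differ was not tested. Plod2 read 7.14 and 6.56 in grown 3AB cells, against 9.90 and 10.01 in grown 3ABY721 cells, and was lower, at -3.11 (SE 0.29, adjusted p = 6.96e-05). In starved cells it read 5.36 and 5.21 in 3AB, against 7.83 and 7.80 in 3ABY721, and was lower, at -2.53 (adjusted p = 0.000536). Both differences were far wider than the gap between arrays, and both calls held without each array in turn. Plod2 was the 1 gene of the 33 called in starved cells (0.617% of all genes).

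P4ha2 read 6.66 and 6.47 in grown 3AB cells, against 8.06 and 7.92 in grown 3ABY721 cells (difference -1.43, adjusted p = 0.0426). Pfkfb4 was higher, at 9.02 and 8.85 in grown 3AB cells, against 8.19 and 8.37 in grown 3ABY721 cells (difference 0.66, adjusted p = 0.0336). The groups of neither gene overlapped. P4ha2 lost its call between grown lines under quantile normalization (-1.36, adjusted p = 0.056) and without any 1 of its 4 arrays (-1.52 to -1.33, adjusted p between 0.207 and 0.316). Pfkfb4 lost its call between grown lines under quantile normalization (0.57, adjusted p = 0.0924), with the replicate block (0.66, adjusted p = 0.0519) and without any 1 of its 4 arrays (0.57 to 0.75, adjusted p between 0.12 and 0.365). Bnip3 and Egln3, higher in grown Y721F than in grown WT cells, measured -0.99 and -1.76 here (adjusted p = 0.459 and 0.178). The macrophage markers Fcgr1 and Mertk were higher in grown 3AB cells, and the fibroblast list summed to 374 in grown 3AB cells and 518 in grown 3ABY721 cells. The part of these markers was not tested. The growth effects of 3AB and 3ABY721 differed in 0 of the 33 genes by limma (0.00502% of all genes called) and in 0 with the block. At an unadjusted p under 0.05, 0 of the 33 passed, against 2.21% of all genes.

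The group means of the 33 genes ran more closely in parallel in the steady-state experiment than in the time course. Over the 8 group means of the steady-state experiment, the 528 pairs of genes had a median Pearson r of 0.773, and 243 pairs were above 0.8. The most alike were Tpi1 and Ldha (r = 0.994), and Pdk1 and Bnip3 were at 0.989 and Egln3 and Vegfa at 0.988. Over the 8 group means of the time course the median was 0.205, with 62 pairs above 0.8 and 18 below -0.8, and Slc2a1 and Pfkp were the most alike (r = 0.982). These values describe genes measured on the same arrays and carry no test.

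Genes of the same pathways outside the 36 were counted beside them, and 73 of 81 listed were measured. In grown against starved cells 8 rose and 1 fell in Y721F, 3 and 2 in WT, 1 and 0 in 3AB, and 2 and 2 in 3ABY721 cells. Of all genes 3.48% rose and 1.46% fell in Y721F cells, and 2.3% and 3.01% in WT cells. In 3AB cells 0.431% and 0.256% did so, and in 3ABY721 cells 0.742% and 0.672%. Most of these counts rest on few genes. Adm (adrenomedullin) and Ero1a (an oxidase of the endoplasmic reticulum) rose in Y721F cells by 3.27 and 2.79. Fam162a, a reported HIF target, rose by 2.25, 1.22 and 1.42 in Y721F, WT and 3ABY721 cells. Slc2a3, the glucose transporter GLUT3, rose in Y721F cells by 1.27. Slc2a6, another member of that transporter family, fell by 1.05, 1.72 and 1.39 in Y721F, WT and 3ABY721 cells. Cxcr4, a chemokine receptor and reported HIF target, fell by 3.11 in WT and 2.48 in 3ABY721 cells. The cytokine gene Mif, named here after its values were seen, rose by 1.08, 0.74, 0.61 and 0.74 in Y721F, WT, 3AB and 3ABY721 cells. Its limma call in 3AB cells (adjusted p = 0.0411) was lost with the replicate block (adjusted p = 0.0723).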

How the data were processed

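The values are log2 signals per probe set as the authors deposited them; that the scale is log2 was read from the values, while how background was corrected, probes summarized and arrays normalized is not given in the sources used here. Per the labels' protocols, total RNA was extracted with Trizol. Per the series text, the submitters used limma with a fold above 1.5 and a p-value under 0.05. Of 35556 probe sets, 21789 were annotated to 1 gene, 1621 to several and 12146 to none, which left 19938 genes. Among several probe sets of a gene, the brightest by mean signal was used.

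Differences were fitted in R 4.3.3 with limma 3.58.1 (lmFit and eBayes), the time course and the steady-state experiment separately, with Benjamini-Hochberg adjustment over all 19938 genes. A gene was called at an adjusted p under 0.05 with a fold above 1.5. The code was tested on simulated data. Values in every array are given for the genes on which results turn, with differences or ranges for the rest, and of other pathway lists up to 4 called genes with the largest change are named. The members and lists were chosen with earlier results of these data known.

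Array numbers paired the samples of the time course, since the deviations of same-numbered arrays from their group means correlated with r between 0.353 and 0.648 in Y721F and between 0.487 and 0.734 in WT cells. Alternatives were quantile normalization, median centring, a filter on genes under the 20th percentile of signal, the replicate block, the mean of all probe sets of a gene, the cutoff of the series text, each array left out, and, added after seeing the data, another Hk1 probe set. Promoter sequences are from RefSeq (GRCm38.p6).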

Additional observations from a re-analysis of the deposited data

How the results depend on the processing

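Over 22 comparisons, the counts of the 33 genes called stayed within 1.5 times under median centring, the filter on dim genes, the mean of all probe sets of a gene and the other Hk1 probe set. Quantile normalization gave 0 at 20 min and 2 at 180 min in WT cells, 3 in grown 3AB cells, 1 between starved Y721F and WT cells and 1 between grown 3AB and 3ABY721 cells. The replicate block gave 2 at 60 min and 7 at 180 min in Y721F cells, 8 and 9 in WT cells, and 2 between Y721F and WT cells at 0 min. In the steady-state experiment arrays of the same number did not all deviate together (r = 0.12, 0.255, 0.042 and 0.28 in Y721F, WT, 3AB and 3ABY721 cells), and the block moved no count there by more than 1.5 times. The cutoff of the series text was an unadjusted p under 0.05 with a fold above 1.5. It gave 1, 2 and 8 at 20, 60 and 180 min in Y721F cells, and 0.642%, 1.54% and 5.27% of all genes. In WT cells it gave 3, 7 and 8, and 0.742%, 4.14% and 7.1% of all genes. From 60 to 180 min that cutoff gave 2 in Y721F (2.22% of all genes) and 2 in WT cells (1.03%). It gave 2 between them at 0 min (3.53%) and 1 for the difference in the 180 min answer (0.361%). In grown 3AB cells it gave 15 (3.1%), and between starved Y721F and WT cells 7 (12.5%). For the growth effect of Y721F minus WT it gave 14 (7.81%). Between 3AB and 3ABY721 it gave 8 in grown (3.08%) and 4 in starved cells (2.33%). Leaving out 1 array at a time gave 0 to 0, 0 to 1 and 0 to 2 calls at 20, 60 and 180 min in Y721F cells and 0 to 1, 0 to 5 and 0 to 1 in WT cells. It gave 13 to 25, 7 to 10, 0 to 1 and 3 to 5 in grown against starved Y721F, WT, 3AB and 3ABY721 cells. Between Y721F and WT it gave 1 to 18 in grown and 1 to 2 in starved cells and 0 to 13 for the growth effect, and between 3AB and 3ABY721 1 to 1 and 1 to 1. The cause of these changes was not tested, beyond the fewer arrays when 1 is left out. Of 77 calls of single genes, 24 were kept in every setting and without each array in turn, 53 were lost without at least 1 array, 17 were lost in at least 1 other setting, and 0 reversed. Not every setting could lose a call. The cutoff of the series text is looser than the main rule on the same fit. The other Hk1 probe set replaced only Hk1, which was not called, and the mean of probe sets changed only genes with several of them. With 2 arrays per group, the number of arrays limits the precision of every value.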

Other observations

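The pentose phosphate pathway branches from glycolysis to make NADPH and ribose. By limma 0 of its 8 measured genes were called in grown against starved cells of each of the 4 lines. Of all genes 4.94%, 5.32%, 0.687% and 1.41% were called in Y721F, WT, 3AB and 3ABY721 cells. At an unadjusted p under 0.05 with a fold above 1.5 the count was also 0 in each line. There 7.03%, 8.29%, 3.1% and 4.13% of all genes passed. At such shares a count of 0 of 8 does not set these genes apart. Their differences lay between -0.48 and 0.39. Of the genes of pyruvate dehydrogenase and the TCA cycle, Idh3a, a subunit of isocitrate dehydrogenase, rose by 1.27 in grown WT cells, and Pdk3, an inhibitory kinase of pyruvate dehydrogenase, rose by 0.85 in grown Y721F cells.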
